A study of Arabidopsis thaliana with 2 samples.

Results

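MH-seq, in which nuclei are lightly cut with micrococcal nuclease (MNase) and the short fragments set free are sequenced, was used to ask where chromatin is accessible at the NBS-LRR immune receptor genes of Arabidopsis thaliana. Genes were taken as NBS-LRR genes when they are protein-coding in TAIR10 and the annotated product contains "NBS-LRR" or "NB-ARC". This rule found 141 of 27444 protein-coding genes. By product text, 91 were of the TIR class and 25 of the CC class, and 25 products named neither. The rule reads product text alone, so 12 of 42 receptor genes listed from general knowledge, ADR1-L1 and ZAR1 among them, lay outside it. The data were 2 libraries, replicate 1 and replicate 2, of 1 group: seedlings of wild-type Col-0, 2 weeks old, grown at 23 °C with 16 h of light and 8 h of dark, whose tissue was fixed with 1% formaldehyde and whose sequenced fragments were shorter than 100 bp. No mutant, treatment or infected sample was part of the comparison.

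NBS-LRR proteins are intracellular receptors with a nucleotide-binding domain and leucine-rich repeats. They detect pathogen effectors, or the damage that effectors do to host proteins, and set off a defence response that often ends in local cell death. TIR-class receptors signal through EDS1, whereas many CC-class receptors act at the plasma membrane. The genes are known for lying in tandem arrays that arose by duplication, for differing strongly between ecotypes, and for a cost to growth when they are too active.

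A gene was called clustered when another NBS-LRR gene lay within 20 kb, and single otherwise. There were 88 clustered genes in 32 clusters and 53 single genes. Of the clusters, 21 had 2 genes, 7 had 3, 2 had 5, 1 had 7 and 1 had 8. Most of the genes were on chromosomes 5 and 1, with 52 and 43, and 27, 15 and 4 were on chromosomes 4, 3 and 2. Of the 53 single genes, 9 had within 20 kb a gene outside the rule whose product text names disease resistance. Receptors annotated by another name, such as CHS3 near CSA1, are not in that count.

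An MNase hypersensitive site (MHS) is a region called as accessible by the authors in a library. The libraries held 70046 and 49934 MHSs with median lengths of 146 and 187 bp. The authors report more chloroplast reads and a higher background for their second dataset than for their first. An MHS was assigned to a gene when its midpoint lay in the gene window, from 1 kb upstream of the transcription start site (TSS) to 1 kb past the end of the gene. The lists give positions without a score or read count, so read depth per site is unknown here, and 95% intervals are exact Clopper-Pearson intervals that cover the counting of genes or MHSs only. Genes are not replicates and neighbours share MHSs, so differences between sets of genes were described and not tested.

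A smaller share of NBS-LRR genes than of all genes had an MHS. In replicate 1, 116 of 141 had at least 1 in the window (82.3%, interval 74.9 to 88.2%), against 90.9% of all protein-coding genes. In replicate 2, 105 had 1 (74.5%, interval 66.4 to 81.4%), against 85.0%. In both replicates the value for all genes lay above the interval. An MHS was found in both replicates at 103 NBS-LRR genes and in neither at 23 (16.3%), whereas 8.07% of all genes had none in either.

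The same held upstream, where promoters lie. Within 1 kb of the TSS, 85 NBS-LRR genes had an MHS in replicate 1 (60.3%, interval 51.7 to 68.4%) and 72 in replicate 2 (51.1%, interval 42.5 to 59.6%), and the values for all genes were 75.1% and 64.1%. Coding sequence was near the level of all genes in replicate 1, with an MHS in 9 NBS-LRR genes (6.38%) against 6.22%. In replicate 2 it was 7 genes (4.96%, interval 2.02 to 9.96%) against 9.16%, a difference within the counting error.

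NBS-LRR genes are long, with a median of 4445 bp against 2078 bp, and a longer window has more room for an MHS. Among genes of 3000 to 6000 bp, 92 of 110 NBS-LRR genes (83.6%) and 96.9% of all genes had an MHS in replicate 1, and 85 (77.3%) and 93.1% did in replicate 2. Per kb of window, NBS-LRR genes held 0.389 MHSs in replicate 1 and 0.253 in replicate 2, against 0.674 and 0.492 for all genes. MHSs covered 7.31% and 5.88% of the window bases of NBS-LRR genes, against 13.7% and 11.2%. The lower density was also seen in gene bodies alone, at 0.197 and 0.121 per kb against 0.351 and 0.270.

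**Figure D1:**
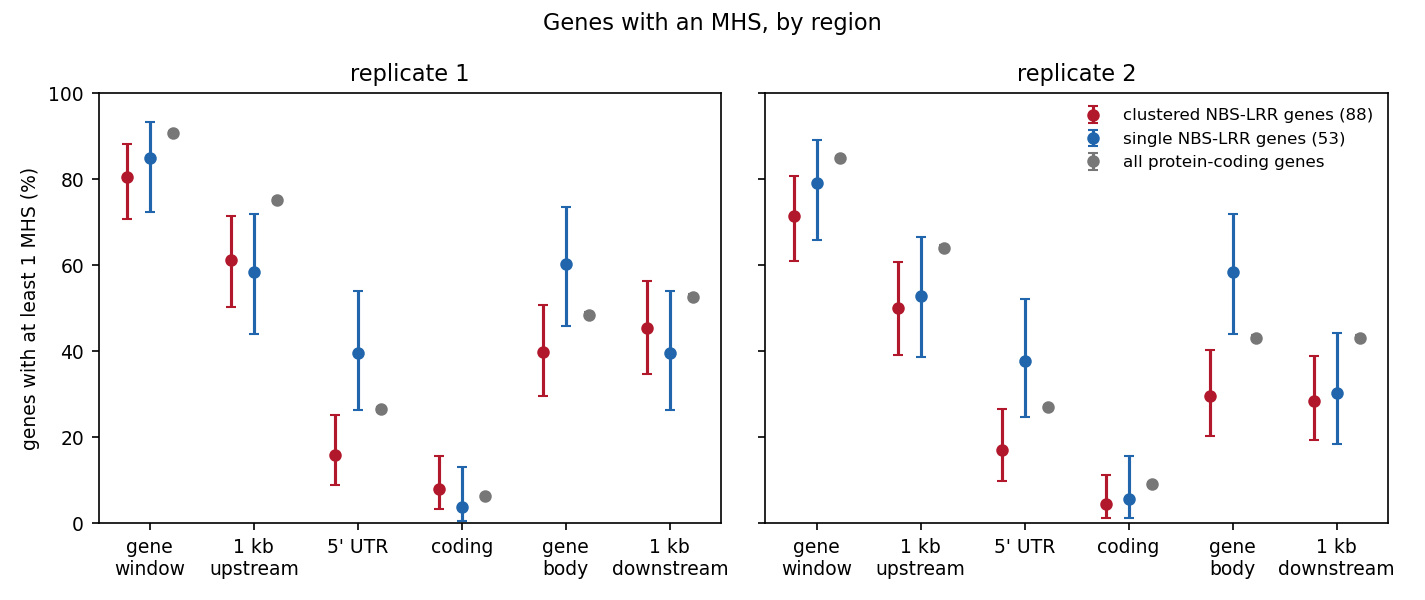
Share of genes with at least 1 MHS (%) by region, in replicate 1 (left) and replicate 2 (right), for 88 clustered NBS-LRR genes, 53 single NBS-LRR genes and all 27444 protein-coding genes. Bars are exact 95% intervals for counting error, and the clustered and single genes stand furthest apart in the 5′ UTR and gene body.

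Clustered and single genes did not separate upstream and stood apart inside the gene, though not at every cluster size. In the whole window, 71 of 88 clustered genes (80.7%) and 45 of 53 single genes (84.9%) had an MHS in replicate 1, and 63 (71.6%) and 42 (79.2%) did in replicate 2, with intervals that overlap. Upstream, the shares were 61.4% of clustered and 58.5% of single genes in replicate 1 and 50.0% and 52.8% in replicate 2, so the order of the sets turned between replicates.

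The shares stood furthest apart in the 5′ UTR and gene body. An MHS lay in the 5′ UTR of 14 clustered genes (15.9%, interval 8.98 to 25.2%) and 21 single genes (39.6%, interval 26.5 to 54.0%) in replicate 1. In replicate 2 it was 15 clustered genes (17.0%, interval 9.87 to 26.6%) and 20 single genes (37.7%, interval 24.8 to 52.1%). The intervals did not overlap in replicate 1 and overlapped slightly in replicate 2, and all genes lay between, at 26.5% and 27.0%. Over the gene body the shares were 39.8% and 29.5% of clustered genes and 60.4% and 58.5% of single genes, with intervals that overlapped in replicate 1 (29.5 to 50.8% and 46.0 to 73.5%) and did not in replicate 2 (20.3 to 40.2% and 44.1 to 71.9%). All genes again lay between, at 48.6% and 43.1%. By cluster size, the gene body shares were 26.2% and 19.0% in clusters of 2 and 52.4% and 57.1% in clusters of 3. In clusters of 5 or more they were 52.0% and 24.0%. The 5′ UTR shares were 16.7% and 11.9%, 23.8% and 28.6%, and 8.00% and 16.0%, in the same order.

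Density gave a less stable picture, with 0.389 MHSs per kb at clustered genes and 0.388 at single genes in replicate 1, but 0.213 and 0.322 in replicate 2. When only MHSs of at least 100 bp were counted, clustered minus single genes was -0.0767 per kb in replicate 1 and -0.0891 in replicate 2. Of the replicate 1 MHSs, 49.0% at clustered genes and 27.9% at single genes were no longer than 100 bp, against 34.9% at all genes. In replicate 2 these shares were 12.4%, 15.0% and 12.5%, so the excess at clustered genes was seen in replicate 1 only. Of the 194 distinct MHSs of clustered genes in replicate 1, 101 (52.1%) overlapped an MHS of replicate 2, at single genes it was 87 of 129 (67.4%), and at all genes 63.5%. In the other direction, 97 of 105 replicate 2 MHSs of clustered genes (92.4%) and 89 of 107 of single genes (83.2%) overlapped replicate 1, against 87.7% at all genes.

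Copies of a gene can share sequence, and reads of low mapping quality were discarded by the authors. The share of 31-mers in the window that occur again in the reference averaged 14.4% at clustered genes, 7.09% at single genes and 3.91% at all genes. Among genes with under 10% repeated 31-mers, the window shares were 83.3% of 60 clustered and 90.0% of 40 single genes in replicate 1 and 73.3% and 85.0% in replicate 2, against 93.3% and 87.7% of all such genes. In the 5′ UTR an MHS lay in 10 of these clustered genes and 15 of these single genes in replicate 1, and in 12 and 15 in replicate 2. In replicate 1 this was 16.7% (interval 8.29 to 28.5%) and 37.5% (interval 22.7 to 54.2%), so under this restriction the intervals overlapped in both replicates, and all such genes were at 27.6% and 28.3%. Over the gene body the shares were 38.3% of these clustered and 60.0% of these single genes in replicate 1. In replicate 2 they were 35.0% (interval 23.1 to 48.4%) and 62.5% (interval 45.8 to 77.3%). Here too the intervals overlapped in both replicates.

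**Figure D2:**
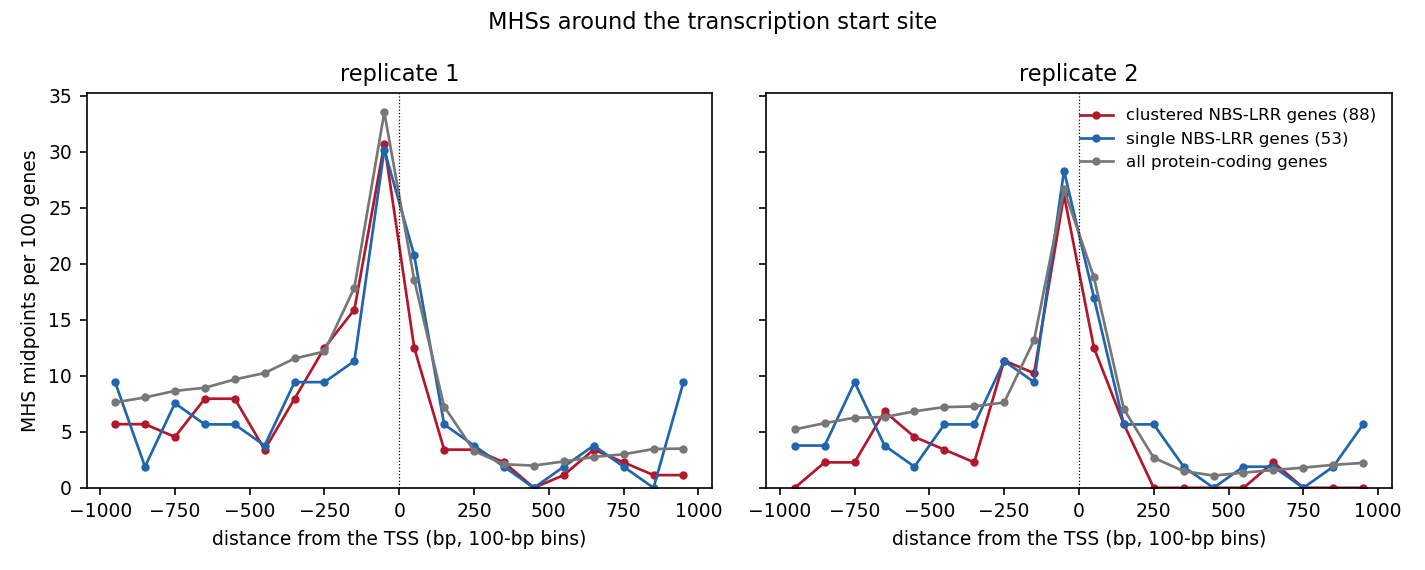
MHS midpoints per 100 genes in bins of 100 bp around the TSS, in replicate 1 (left) and replicate 2 (right), for clustered NBS-LRR genes, single NBS-LRR genes and all protein-coding genes. All 3 sets peak in the last 100 bp before the TSS.

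MHSs of NBS-LRR genes peaked in the last 100 bp before the TSS, as they did over all genes. In the 100 bp before the TSS there were 30.5 MHS midpoints per 100 NBS-LRR genes in replicate 1 and 27.0 in replicate 2, against 33.5 and 26.6 for all genes. In the bin before it, from 200 to 100 bp upstream, NBS-LRR genes held 14.2 and 9.93 per 100 genes, against 17.9 and 13.2. Single genes held 30.2 and 28.3 in the last 100 bp before the TSS and clustered genes 30.7 and 26.1. In the first 100 bp of the gene, single genes held 20.8 and 17.0 and clustered genes 12.5 in each replicate. Where an upstream MHS existed, the midpoint of the nearest lay a median of 99 bp from the TSS in replicate 1 and 97.5 bp in replicate 2, against 117 and 132 bp for all genes.

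**Figure D3:**
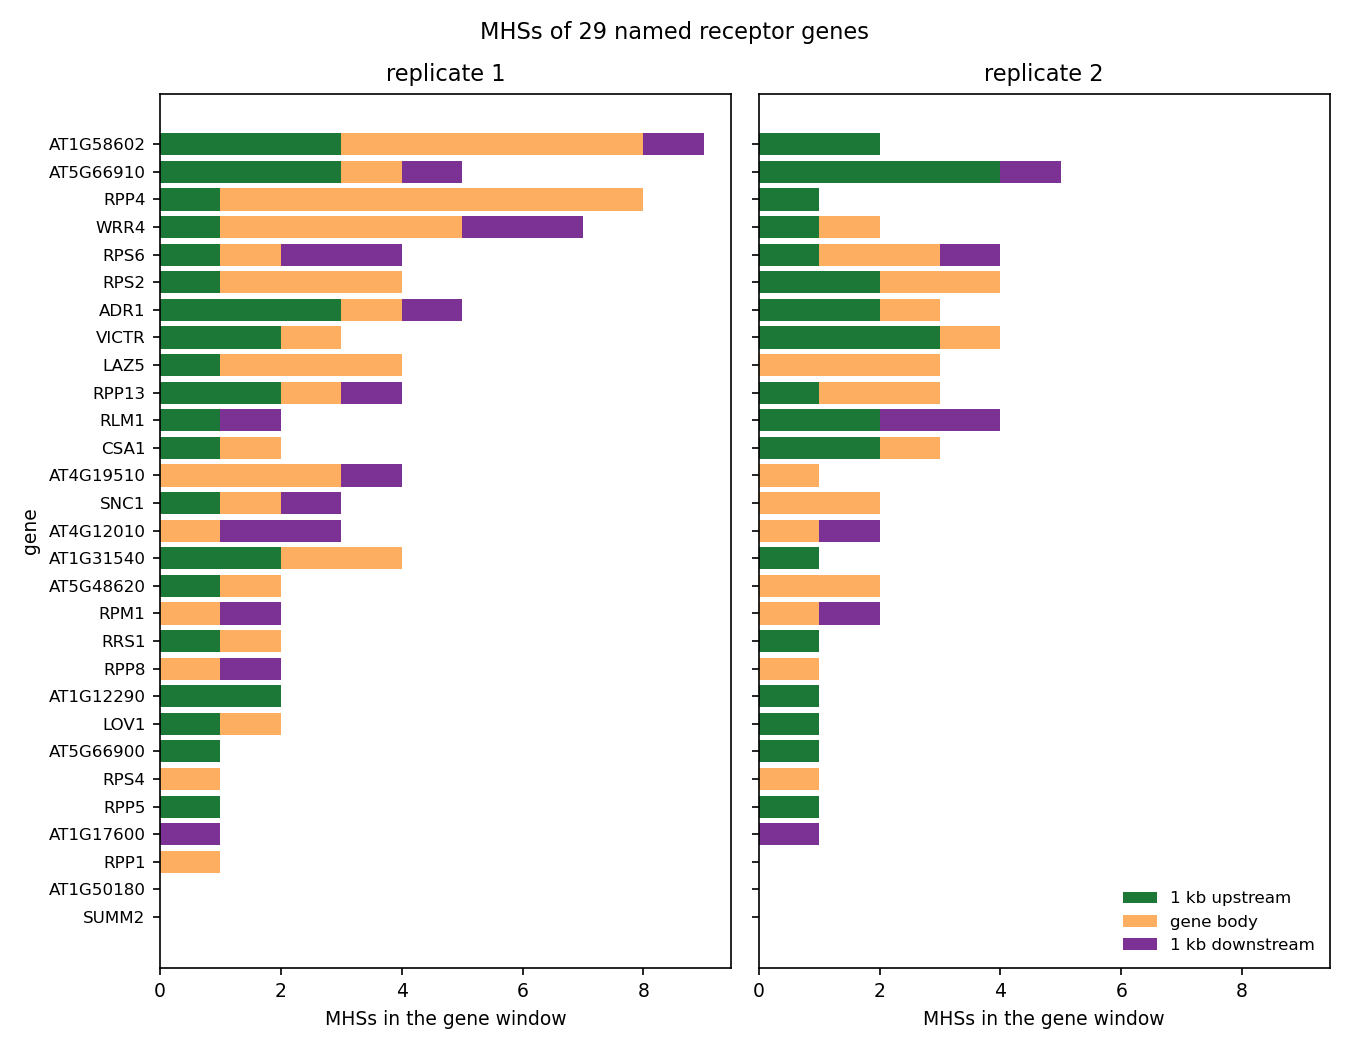
Number of MHSs in the window of 29 of the 30 listed receptor genes inside the rule, in replicate 1 (left) and replicate 2 (right), split into upstream, gene body and downstream. Genes are ordered by the sum over both replicates, from SUMM2 and AT1G50180 with none to AT1G58602 with 9 and 2.

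Of the 42 listed receptors, 30 were inside the rule. At least 1 MHS lay in the window of 28 of them in replicate 1 and of 27 in replicate 2, and 18 had an upstream MHS in both. Over all genes, 90.9% and 85.0% had an MHS in the window and 60.9% had one upstream in both replicates. An MHS in coding sequence was found at 2 of the 30 in replicate 1 and at 1 in replicate 2. Among all genes it was 6.22% and 9.16%.

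RPS2 and RPM1, which guard the host protein RIN4 against Pseudomonas effectors, differed in layout. RPS2 had 4 MHSs in each replicate, and its upstream MHS of 858 bp (chr4:13223182-13224039, build TAIR10) was the longest upstream MHS of any NBS-LRR gene in replicate 1. In replicate 2 it measured 739 bp, again the longest. A second RPS2 MHS of 426 bp in replicate 1 and 549 bp in replicate 2 covered the TSS and held 4 W-boxes in each. RPM1 had 2 MHSs in each replicate and none upstream. Of these, 164 bp and 185 bp lay in the 5′ UTR, and 304 bp and 318 bp lay downstream.

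RPS4 and RRS1 form a receptor pair that acts together, and RRS1 carries a WRKY DNA-binding domain. Their genes lie head to head on chromosome 5, 27 bp apart, and the run between them, shown because both genes start at its ends, reads on the strand of RRS1:
RPS4-RRS1 chr5:18326176-18326202: tgagatttgagtggttgaatgtccaat
In replicate 1 an MHS of 244 bp (chr5:18325994-18326237) spanned this run, with its midpoint in the 5′ UTR of RPS4 and 88 bp before the TSS of RRS1. In replicate 2 an MHS of 119 bp (chr5:18325997-18326115) lay on the RPS4 side of it, with its midpoint 147 bp before the TSS of RRS1. These were the only MHSs of RPS4, and RRS1 had 1 more in replicate 1, of 86 bp in an intron. Among neighbouring NBS-LRR genes in clusters, 10 pairs were head to head, and an MHS had its midpoint between the genes of 5 of these in replicate 1 and 4 in replicate 2. RPS4 and RRS1 are not among them, since the midpoint of their MHS lay in RPS4. Of 41 tandem pairs it was 28 and 21, and of 5 tail-to-tail pairs 2 and 1. The gaps differ in length, with medians of 1760, 1261 and 976 bp for head-to-head, tandem and tail-to-tail pairs. Per kb of gap, head-to-head pairs held 0.749 and 0.355 MHSs, tandem pairs 0.371 and 0.225, and tail-to-tail pairs 0.384 and 0.153. No other gene lay between 7 of the head-to-head, 19 of the tandem and 4 of the tail-to-tail pairs. The tandem gaps include 14027, 7106, 19283 and 7105 bp between the genes from AT1G58602 to AT1G59218. There 1 MHS was found in replicate 1 and none in replicate 2. The windows of these genes averaged 83.0% repeated 31-mers, and the part of this was not tested. Neighbouring pairs of other genes were not counted.

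Receptors for the downy mildew Hyaloperonospora differed widely in their number of MHSs. RPP13 had 4 and 3 MHSs, RPP8 had 2 and 1 with none upstream, and RPP5 had 1 and 1. RPP1, at which 61.9% of 31-mers were repeated, had 1 MHS of 179 bp in replicate 1 and none in replicate 2. RPP4 had 8 in replicate 1 and 1 in replicate 2. Of the 8, 7 lay in the gene body and none of these overlapped replicate 2, whereas the upstream MHS of 221 bp in replicate 1 overlapped the 506 bp MHS of replicate 2. Only the upstream MHS of RPP4 was thus seen in both replicates.

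ADR1, a helper receptor that works downstream of other receptors, had 3 upstream MHSs in replicate 1 that overlapped replicate 2, all outside annotated genes. They are printed on the strand of the gene, with W-boxes, the motif that WRKY factors bind, in capitals (TTGACC or TTGACT, or its reverse complement):
ADR1 chr1:12168073-12168209: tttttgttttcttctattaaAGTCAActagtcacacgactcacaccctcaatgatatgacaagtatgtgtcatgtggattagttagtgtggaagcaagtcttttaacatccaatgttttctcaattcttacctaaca
ADR1 chr1:12168215-12168286: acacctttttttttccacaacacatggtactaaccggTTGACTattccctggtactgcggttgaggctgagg
ADR1 chr1:12168314-12168562: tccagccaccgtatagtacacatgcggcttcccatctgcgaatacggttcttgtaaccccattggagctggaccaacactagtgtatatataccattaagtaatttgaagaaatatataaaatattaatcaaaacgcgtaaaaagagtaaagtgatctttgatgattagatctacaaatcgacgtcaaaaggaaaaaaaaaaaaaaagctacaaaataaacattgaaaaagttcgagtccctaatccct
Their lengths were 137, 72 and 249 bp, and the first and the second held 1 W-box each. In replicate 2, MHSs of 168 and 121 bp lay there, so the gap between the first and the second was not seen. A further MHS in the 5′ UTR measured 275 bp in replicate 1 and 169 bp in replicate 2. Neither ADR1 nor RPS2 had another NBS-LRR gene within 20 kb.

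VICTR, a TIR-class gene needed for the root growth arrest that a synthetic compound causes, had 2 upstream MHSs in replicate 1 and 3 in replicate 2. The upstream MHS outside annotated genes that was shared by both replicates held no W-box:
VICTR chr5:18867141-18867396: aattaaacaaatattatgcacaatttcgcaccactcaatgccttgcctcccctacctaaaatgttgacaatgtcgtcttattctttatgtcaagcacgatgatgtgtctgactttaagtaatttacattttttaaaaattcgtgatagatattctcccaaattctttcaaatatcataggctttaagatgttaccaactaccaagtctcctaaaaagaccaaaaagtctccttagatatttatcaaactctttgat
Elsewhere in the list, CSA1, whose product acts with the receptor CHS3, had 2 and 3 MHSs. LAZ5, for which mutants suppress cell death, had 4 and 3. WRR4, a white rust receptor, had 7 and 2, RLM1, a receptor for the blackleg fungus, had 2 and 4, and LOV1, which confers sensitivity to the toxin victorin, had 2 and 1. SUMM2, which monitors a MAP kinase cascade, had none in either replicate, with 0.645% of 31-mers repeated.

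Long upstream MHSs of other genes are shown for the W-boxes they hold. Besides RPS2, SNC1 had 838 bp in replicate 1. SNC1 is known from a gain-of-function allele that causes constant defence. AT5G66910 had 780 bp in replicate 1, AT1G63880 had 704 bp in replicate 2 and AT1G58602 had 609 bp in replicate 2. The stretches were chosen after the MHSs were seen, and cover 25 bp on each side of each W-box on the strand of the gene, leaving out those that touch a gene. They are from the RPS2, AT5G66910, AT1G63880 and AT1G58602 MHSs:
RPS2 chr4:13223262-13223317: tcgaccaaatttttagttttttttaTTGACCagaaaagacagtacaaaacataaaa
AT5G66910 chr5:26721549-26721617: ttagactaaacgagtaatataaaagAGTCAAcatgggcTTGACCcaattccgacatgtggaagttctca
AT1G63880 chr1:23716232-23716287: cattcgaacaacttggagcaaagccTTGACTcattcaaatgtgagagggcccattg
AT1G63880 chr1:23716392-23716447: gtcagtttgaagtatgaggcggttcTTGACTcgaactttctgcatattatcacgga
AT1G58602 chr1:21745809-21745913: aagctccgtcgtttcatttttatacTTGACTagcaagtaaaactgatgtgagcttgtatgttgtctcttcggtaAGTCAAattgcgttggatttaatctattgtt
The SNC1 MHS had 1 W-box and no stretch free of a gene. AT5G66910 and AT1G58602 each show 2 W-boxes in a single stretch. AT5G66910 also had a short upstream MHS that overlapped replicate 2, lay outside annotated genes and held no W-box:
AT5G66910 chr5:26722311-26722385: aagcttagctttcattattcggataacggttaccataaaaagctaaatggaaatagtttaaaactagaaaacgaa

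W-boxes were more frequent in the upstream MHSs of NBS-LRR genes than in those of all genes. They were in 52 of 140 (37.1%, interval 29.1 to 45.7%) in replicate 1 and 50 of 105 (47.6%, interval 37.8 to 57.6%) in replicate 2, against 24.5% and 30.1%. Per kb of upstream MHS there were 2.27 and 2.80 W-boxes, against 1.51 and 1.72 for all genes. The 1-kb upstream regions themselves differed less, with a W-box in 102 of 141 (72.3%, interval 64.2 to 79.5%) against 67.3%. Per kb of these regions there were 1.48 W-boxes, against 1.21 for all genes. The TGACG motif of TGA factors was in 17.9% and 26.7% of upstream MHSs, close to 17.7% and 24.4% for all genes. The G-box (CACGTG), a motif bound by bHLH and bZIP factors, was in 2 of 140 and 2 of 105, against 7.08% and 10.6%. At clustered genes it was in 0 of 90 and 0 of 61, which allows a share of up to 4.02% and 5.87% by the exact interval, and it was in 10 of 141 upstream regions (7.09%, interval 3.45 to 12.7%) against 14.8% of all. Both strands were searched, and a match describes letters, not bound protein. Of the upstream MHSs, 56.4% and 56.2% also lay in the window of a gene outside the rule.

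**Figure D4:**
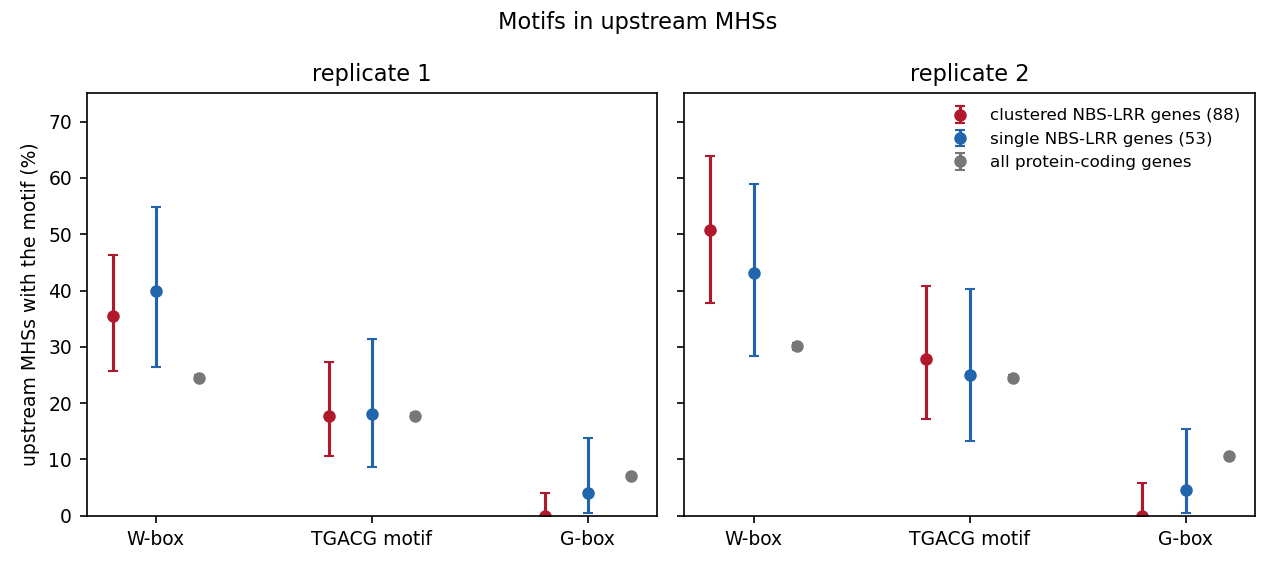
Share of upstream MHSs (%) that contain a W-box, a TGACG motif or a G-box, in replicate 1 (left) and replicate 2 (right), for clustered and single NBS-LRR genes and all protein-coding genes. Bars are exact 95% intervals for counting error, and the W-box shares of NBS-LRR genes lie above the gray points.

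The largest clusters differed in how many genes had an MHS. The cluster of 8 on chromosome 4 holds RPP4, SNC1 and RPP5 and spans 68.6 kb. In replicate 1, 7 of the 8 had an MHS and 5 had one upstream. In replicate 2 it was 5 and 4. The RPS4 and RRS1 cluster on chromosome 5 has 7 genes in 49.3 kb, and 7 had an MHS in replicate 1 and 5 in replicate 2, with 4 and 2 upstream. Among the 4 clusters of 5 or more genes, that of RPS6 and VICTR, 5 genes in 36.9 kb, was the only one in which every gene had an upstream MHS in both replicates. In the cluster of 3 with WRR4, all 3 had an upstream MHS in both. Over all genes, 90.9% and 85.0% had an MHS in the window and 75.1% and 64.1% had one upstream. Each cluster has few genes and neighbours share MHSs, so these differences are a description.

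The cluster of 5 on chromosome 1, 86.7 kb that run from AT1G58602 to AT1G59218, was the extreme. AT1G58602 had 9 MHSs in replicate 1 and 2 in replicate 2. The 2 of replicate 2 were both upstream and overlapped replicate 1. The MHS of 103 bp of replicate 1 that overlapped the first of them reads:
AT1G58602 chr1:21745617-21745719: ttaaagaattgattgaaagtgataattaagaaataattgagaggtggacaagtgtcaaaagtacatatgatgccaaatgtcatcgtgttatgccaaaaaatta
None of the other 4 genes, AT1G58807, AT1G58848, AT1G59124 and AT1G59218, had an MHS in either replicate. In their windows 99.2 to 100% of 31-mers were repeated, and reads of low mapping quality were not kept. The part of this in their counts of 0 was not tested. The repeated 31-mers of AT1G58602 were 16.0%.

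**Figure D5:**
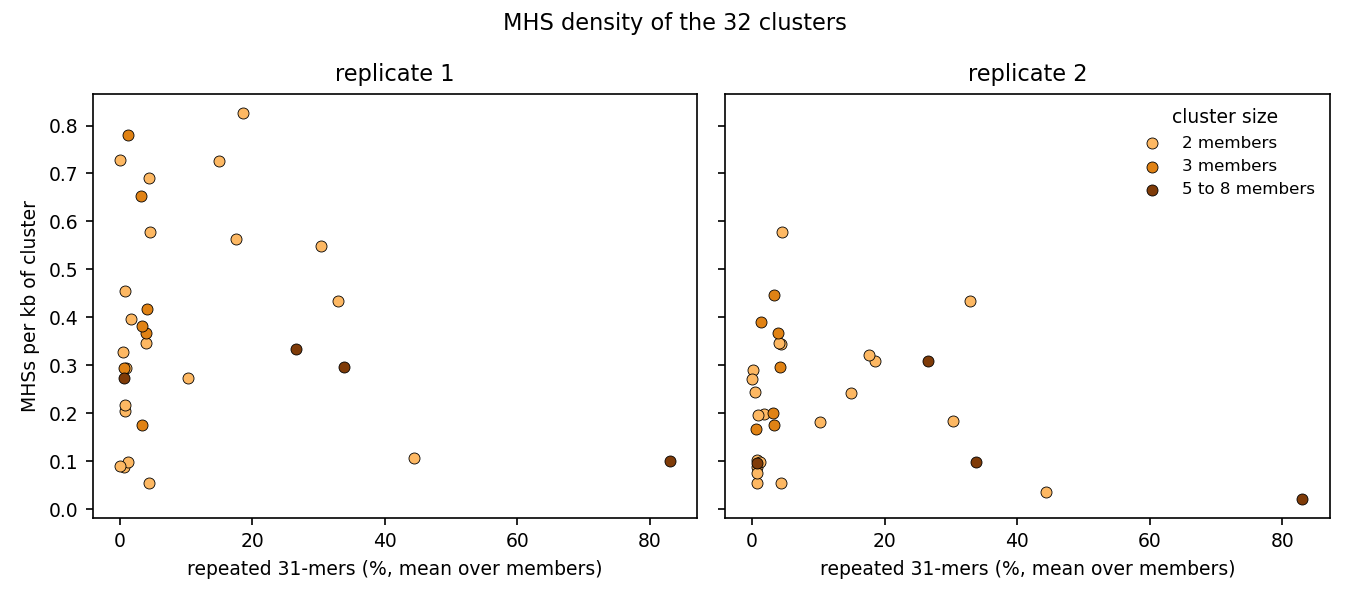
MHSs per kb of the 32 clusters against the mean share of repeated 31-mers in the windows of their genes (%), in replicate 1 (left) and replicate 2 (right). Points are clusters, colored by number of genes, and the cluster with 83.0% repeated 31-mers has 0.102 and 0.0226 MHSs per kb.

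The 23 genes with no MHS in either replicate were 16 clustered and 7 single genes. Of these, 11 were among the 41 NBS-LRR genes with at least 10% repeated 31-mers (26.8%) and 12 among the 100 genes with less (12 of 100). Over all protein-coding genes with under 10% repeated 31-mers, 5.77% had none in either replicate. The first of the 23 in map order were SUMM2, AT1G50180, AT1G51480, AT1G58390, the 4 genes named above, AT1G61300 and AT1G62630. AT3G51570, AT5G17680 and AT5G17970 also had none, although none of their 31-mers was repeated. The part of repeated sequence in these counts was not tested.

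Most MHSs were found at AT4G19520, a TIR gene with 10 in replicate 1 and 2 in replicate 2, and at AT5G40910, a TIR gene with 6 in each. AT1G58602, AT2G14080 and AT4G11170 followed with 11 over both replicates, a sum that AT5G41740 and AT5G46270 shared. The window of AT1G58602 is 21.7 kb long, against 6.78 kb at AT2G14080 and 8.24 kb at AT4G11170. AT5G40910 had its upstream MHS 44 bp from the TSS in replicate 1 and 58 bp in replicate 2, of 260 and 341 bp, and the other 5 of replicate 1 lay in the UTRs. The replicates disagreed most at AT4G19520, where 7 of 10 MHSs of replicate 1 lay in the gene body and 1 did in replicate 2.

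The signalling genes that act with these receptors had more MHSs per kb as a set, but not each on its own. All 19, among them EDS1, PAD4, SAG101, NDR1, RAR1 and RIN4, had an MHS in the window in both replicates (19 of 19, interval 82.4 to 100%). The 90.9% and 85.0% of all genes lie inside that interval. An upstream MHS was present at 18 (94.7%, interval 74.0 to 99.9%) and 16 (84.2%, interval 60.4 to 96.6%) of them. Over all genes it was 75.1% and 64.1%, inside those intervals. Their windows held 0.903 and 0.647 MHSs per kb, against 0.674 and 0.492 for all genes. EDS1, the hub of TIR signalling, had 3 and 2, or 0.623 and 0.415 per kb, below all genes in both replicates. EDM2, TPR1, SRFR1 and SGT1A were also below all genes in both. ICS1, the enzyme that makes the precursor of salicylic acid, had 8 in each, or 1.36 per kb. The list was chosen from general knowledge and is short, so its shares are a description.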

How the data were processed

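The deposited lists hold positions of MHSs (start and end, no value), called by the authors per library with Jazz after trimming with cutadapt and mapping with Bowtie2 to TAIR10, with reads of mapping quality above 10 kept. The versions of these tools were not given in the sources used here. Replicates were 2 libraries with no other group, and the label of the first carries no replicate number. Positions were read as 0-based and are printed 1-based. The 19 sites whose sequences are listed with the study were identical to the reference and present in replicate 1. Genes, products and sequences were taken from RefSeq (TAIR10.1). The NBS-LRR genes and the receptor and signalling lists were chosen with earlier results of these data known.

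Genes named are those of the receptor list, the 5 largest clusters (ties in map order), the 5 genes with most MHSs, the 3 longest upstream MHSs per replicate and the first 10 genes with none. Overlap needed at least 1 bp. Repeated 31-mers are those with another copy in the reference, both strands counted. Alternatives changed the assignment, flanks, cluster distance, gene rule, MHS length, merging and replicates. Python 3.11.15, numpy 2.4.6, scipy 1.17.1 and matplotlib 3.10.9 were used, and functions were tested on simulated data. For 1 gene of the receptor list, values are not reported here, and it is not drawn.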

Additional observations from a re-analysis of the deposited data

How the results depend on the processing

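The share of genes with an MHS in the window ranged from 74.5 to 82.3% when a replicate was left out, the share upstream from 51.1 to 60.3%, and the density from 0.253 to 0.389 per kb. When any overlap counted, the upstream share moved to 63.1%. Clustered minus single genes in the window was -5.94 points and ranged from -7.65 to -4.22 without a replicate. It moved to -12.4 with MHSs of at least 100 bp, -11.6 with a cluster distance of 50 kb and -9.17 with genes under 10% repeated 31-mers, an alternative chosen after seeing the data. Upstream, the difference was 0.0214 points and ranged from -2.83 to 2.87, so it has no direction. It turned to -1.65 by any overlap, -1.89 with MHSs of at least 100 bp, -0.172 after merging, -0.956 within 10 kb, -3.32 within 50 kb, -8.33 under 10% repeated 31-mers and -3.41 with single genes free of others annotated as resistance genes, also chosen after seeing the data. The density difference of -0.0538 per kb ranged from -0.109 to 0.00107 without a replicate. Replicate 2 MHSs that overlap replicate 1 went from 87.7 to 66.0% with a reciprocal overlap of 50%. Causes were not tested. The other 35 values moved by less than the spread between replicates or, for overlap, stayed in its interval. No paired analysis was possible because the 2 libraries form 1 group. Without read counts or scores, an absent MHS cannot be told from low coverage.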
